A study of Mus musculus with 6 samples.

Results

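The cadherin superfamily genes, with the catenins that bind cadherins inside the cell, were taken as every row of the deposited tables whose gene name is that of a numbered cadherin, a cadherin-related gene, a non-clustered protocadherin, a Celsr, Fat, Dachsous, desmocollin, desmoglein or calsyntenin gene, or is Ctnna1, Ctnna2, Ctnnd1, Ctnnd2 or Jup. The rule gave 65 of the 49585 genes listed. It uses names alone and no measured value.

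The study compared mGB2 cells, a mouse line labelled as glioblastoma stem cells, with the genotype Bcat1-KO against the mGB2 control labelled NT. Bcat1 encodes the cytosolic branched-chain amino acid transaminase. No treatment was given. Cells of both groups adhered to plates coated with matrix, in DMEM:F12 with N2, B27, FGF and EGF, and were lysed for RNA once confluent. Each group had 3 libraries of stranded poly(A) RNA-seq. The labels do not say whether the knockout is 1 clone or a pool, or whether libraries came from separate cultures. The p-values therefore set the group difference against the spread between these libraries, which may be technical.

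Cadherins are calcium-dependent adhesion receptors. Classical and type II cadherins bind their like on the next cell, and their tails hold delta-catenins near the membrane and beta-catenin or plakoglobin further along, with alpha-catenin linking the complex to actin. Protocadherins, Fat, Dachsous and Celsr proteins share the extracellular repeats but not that tail, and serve in neuronal recognition, tissue growth control and planar polarity. Neural progenitors and glioma cells are known for carrying N-cadherin (Cdh2) in place of the epithelial E-cadherin (Cdh1).

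Windows of 300 bases at the transcription start are shown for 4 genes picked by hand. Pcdh7 and Pcdh10 were among those with the largest rises, and Cdh24 and Celsr2 among those that fell. The windows were read from RefSeq on GRCm38.p6 and run 5′ to 3′ on the gene's strand, with 250 bases before the start and 50 after. Capitals mark CAGGTG or its reverse complement CACCTG, the E-box that Snail and Zeb repressors of E-cadherin are known to bind. The windows lie at chr5:57717831-57718130 on the plus strand for Pcdh7, chr3:45378148-45378447 on the plus strand for Pcdh10, chr14:54641315-54641614 on the minus strand for Cdh24 and chr3:108415530-108415829 on the minus strand for Celsr2.
Pcdh7: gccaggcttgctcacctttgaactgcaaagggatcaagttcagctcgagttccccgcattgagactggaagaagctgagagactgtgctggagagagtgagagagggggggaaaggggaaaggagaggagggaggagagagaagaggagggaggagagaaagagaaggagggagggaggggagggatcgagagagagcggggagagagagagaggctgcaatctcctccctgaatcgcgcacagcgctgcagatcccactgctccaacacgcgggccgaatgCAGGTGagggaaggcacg
Pcdh10: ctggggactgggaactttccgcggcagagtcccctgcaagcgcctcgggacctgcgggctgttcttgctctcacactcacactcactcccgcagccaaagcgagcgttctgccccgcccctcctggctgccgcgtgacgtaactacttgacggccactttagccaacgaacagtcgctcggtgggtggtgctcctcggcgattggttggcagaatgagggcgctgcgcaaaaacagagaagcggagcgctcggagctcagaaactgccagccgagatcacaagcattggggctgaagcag
Cdh24: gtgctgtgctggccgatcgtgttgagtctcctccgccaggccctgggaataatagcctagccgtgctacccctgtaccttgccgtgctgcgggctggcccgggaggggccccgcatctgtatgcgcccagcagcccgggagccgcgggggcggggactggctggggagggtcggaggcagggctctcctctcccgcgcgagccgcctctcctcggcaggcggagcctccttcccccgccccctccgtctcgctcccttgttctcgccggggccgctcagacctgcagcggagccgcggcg
Celsr2: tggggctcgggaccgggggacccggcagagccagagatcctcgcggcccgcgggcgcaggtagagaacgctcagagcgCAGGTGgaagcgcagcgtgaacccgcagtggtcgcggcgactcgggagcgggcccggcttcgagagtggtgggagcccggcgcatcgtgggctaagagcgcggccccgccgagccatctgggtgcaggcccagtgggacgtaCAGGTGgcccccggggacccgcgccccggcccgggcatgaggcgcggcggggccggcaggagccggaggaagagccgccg

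The Pcdh7 window held 1 match, 32 bases after the RefSeq start, which itself lies 114 bases inside the start given in the deposited tables. The Celsr2 window held 2, at 172 and 30 bases before the start, and the windows of Pcdh10 and Cdh24 held none. Of the 23 tested members with a window, 3 held a match (Pcdh7, Celsr2 and Fat1, whose RefSeq start lies 14761 bases from the tables' start), against 20.2% of all 32851 windows of this length. These 4 windows were richer in G and C, at 59.3% for Pcdh7, 62.3% for Pcdh10, 73.3% for Cdh24 and 76.3% for Celsr2, than the median of all windows, 52.7%. Windows of the tested members lay on both sides of that median, from 37.7% for Cdh10 to 79.7% for Clstn1. A match is a run of letters and not a measured site.

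Libraries held 29543157 to 37800648 counts on the reverse strand, which carried 96.4% to 96.5% of the stranded reads. Before TMM scaling, 3 counts correspond to 0.0794 to 0.102 CPM in 1 library. Bcat1 itself had 155, 176 and 173 CPM in Bcat1-KO cells, against 214, 223 and 232 CPM in control cells, and fell by 0.41 on the log2 scale (SE 0.07, edgeR adjusted p = 0.000355). The labels do not say which part of the gene was altered, so this count is a weak check of the genotype. Knockout and control separated on the first axis of a multidimensional scaling, and Bcat1-KO library 1 stood apart on the second. The first axis held 93.5% of the variance in distances that used only the genes differing most between each pair of libraries. Of the 9 neural stem and glial markers, Nes, Sox2 and Olig2 among them, 1 lay below 1 CPM in every library, Prom1, with 0.829 CPM in Bcat1-KO cells and 0 counts in control cells. Their summed level was 2245 to 2447 CPM in Bcat1-KO cells, against 1482 to 1548 CPM in control cells. Nes (edgeR adjusted p = 0.275) and Msi1 (edgeR adjusted p = 0.637) did not pass the test, and all other markers of the list passed it as higher. Sox2 and Olig2 rose by 1.31 and 1.07 on the log2 scale. Fabp7 averaged 188 CPM in Bcat1-KO cells and 6.26 CPM in control cells. Sox9 averaged 52.6 CPM in Bcat1-KO cells and 18.8 CPM in control cells. Vim averaged 838 CPM in Bcat1-KO cells and 688 CPM in control cells, and Gfap 1.93 CPM in Bcat1-KO cells and 0.807 CPM in control cells.

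Of the 65 genes, 34 passed the filter on low counts and were tested, 19 were higher in Bcat1-KO cells, 7 were lower and 8 did not pass the test at an adjusted p of 0.05. The background is high in this comparison, since 32.0% of the 14020 genes tested were higher and 30.3% were lower. At a change of at least 2-fold, 15 members were higher and 4 lower, where 9.76% of all tested genes were higher and 9.43% lower. The median log2 fold change of the tested members was 0.58, beside 0.01 over all tested genes. In 8 of the 34, all 3 libraries reached the filter's 0.289 CPM in 1 group only, which favours genes that differ. These counts therefore describe the members and support nothing further. Where groups of single genes are said below not to overlap, no share over all tested genes stands beside that. The groups of Cdh22 and Pcdh17 also did not overlap, though neither gene passed the test. In bulk RNA, fewer cells carrying a gene and less RNA per cell cannot be told apart.

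Together the family took 0.158% to 0.179% of the counts in Bcat1-KO libraries, against 0.119% to 0.130% in control libraries. Its summed level per length, in the authors' TPM, was 805 to 942 in Bcat1-KO cells and 618 to 666 in control cells. Ctnna1, Clstn1 and Cdh4 held ranks 1, 2 and 3 by TPM in Bcat1-KO cells and also in control cells. Rank 4 belonged to Ctnnd2 in Bcat1-KO cells and to Cdh24 in control cells. Dchs1 stood at rank 10 in Bcat1-KO cells and 24 in control cells, and Pcdh7 at rank 11 in Bcat1-KO cells and 26 in control cells.

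**Figure D1:**
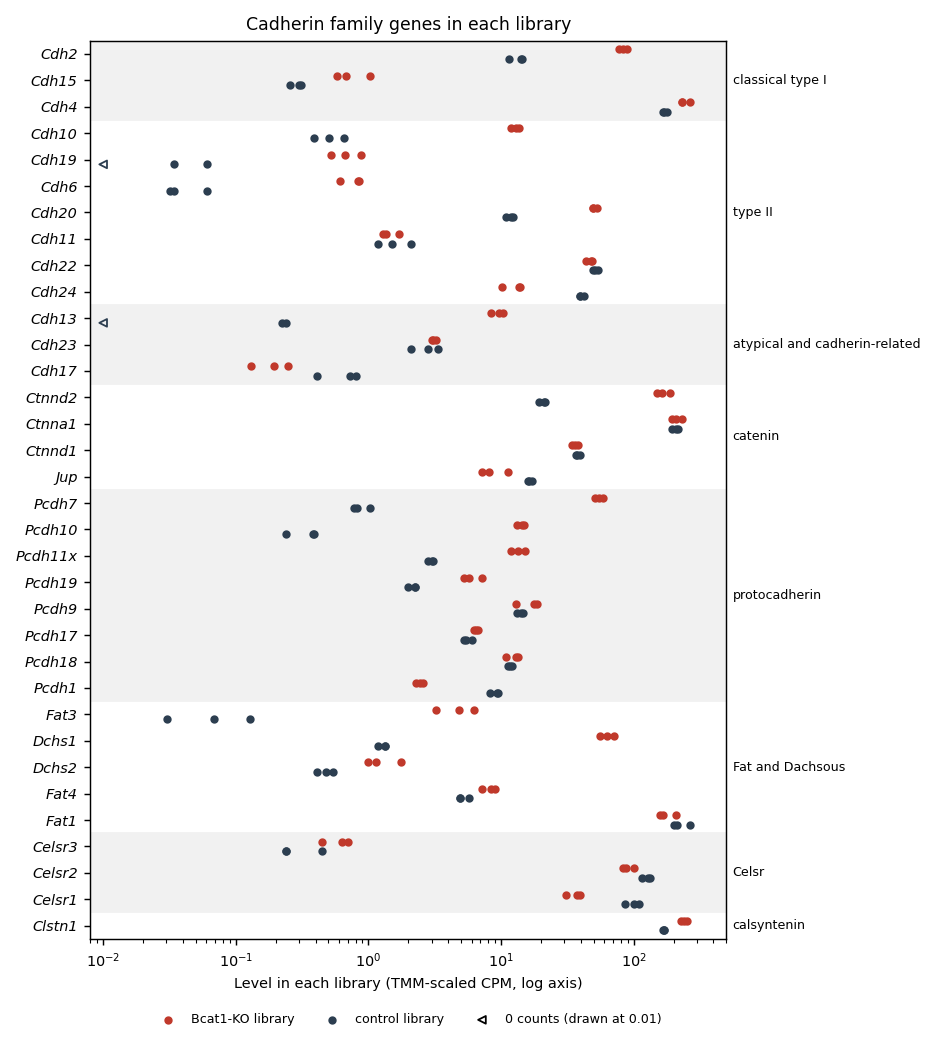
Level of each of the 34 tested cadherin family genes in each library, in TMM-scaled CPM on a log axis, grouped by role, with Bcat1-KO libraries in red and control libraries in dark blue. Triangles mark libraries with 0 counts. Pcdh7 sits between 51.4 and 58.3 CPM in Bcat1-KO libraries and at or below 1.03 CPM in control libraries, while the points of Ctnna1 overlap.

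Among the classical type I cadherins, all 3 genes tested rose. N-cadherin, Cdh2 (18:16588877-16809246, mm10), had 77.6, 83.1 and 89.3 CPM in Bcat1-KO cells, against 11.5, 14.4 and 14.2 CPM in control cells. Every Bcat1-KO library lay far above every control library, and the rise was 6.23-fold (log2 fold change 2.64, SE 0.09, edgeR adjusted p = 4.89e-10). R-cadherin, Cdh4, a retinal and neural cadherin closely related to Cdh2, was the most abundant classical or type II cadherin gene per length in both groups. It had 233, 232 and 267 CPM in Bcat1-KO cells, against 166, 170 and 178 CPM in control cells, a rise of 1.42-fold (log2 fold change 0.51, SE 0.07, edgeR adjusted p = 8.99e-05). The groups did not overlap. M-cadherin, Cdh15, known from muscle, was near the detection limit, at 0.760 ± 0.235 CPM in Bcat1-KO cells and 0.288 ± 0.0298 CPM in control cells (SD, n = 3 each; edgeR adjusted p = 0.00338). E-cadherin, Cdh1, and P-cadherin, Cdh3, had 0 counts in all 6 libraries, where 3 counts over a group would be 0.0270 CPM in Bcat1-KO cells and 0.0320 CPM in control cells, so a level up to that would not be detected.

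The type II cadherins, a neural and mesenchymal branch that differs from type I in its binding pocket, changed in both directions. Of 13 genes, 7 were tested, 4 rose and 1 fell. Cdh20 (1:104768529-104995481), the counterpart of frog F-cadherin, had 49.5, 49.1 and 52.8 CPM in Bcat1-KO cells, against 11.9, 11 and 12.3 CPM in control cells. It rose 4.31-fold (log2 fold change 2.11, SE 0.08, edgeR adjusted p = 6.5e-10). The libraries of a group lay close together, with an SD of 2.04 CPM in Bcat1-KO cells and 0.673 CPM in control cells. Cdh10 (15:18818947-19014236), expressed in developing brain, had 13, 11.9 and 13.8 CPM in Bcat1-KO cells, against 0.509, 0.392 and 0.654 CPM in control cells. This was a 25.0-fold rise (log2 fold change 4.64, SE 0.18, edgeR adjusted p = 1.01e-09), and control cells held only 48 counts in all.

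Cdh24 (14:54631992-54641364) went the other way. It had 10.2, 13.6 and 13.9 CPM in Bcat1-KO cells, against 42.2, 39.1 and 39.7 CPM in control cells, and fell by 1.68 on the log2 scale (SE 0.11, edgeR adjusted p = 1.04e-07), with control 3.21-fold higher. The median change of the 50 tested genes nearest to it on chromosome 14 was -0.43, and its part in the fall was not tested; less that median the change was -1.25. Cdh22, a cadherin of pituitary and brain, had 48.2, 43.4 and 48.1 CPM in Bcat1-KO cells, against 49.1, 51.3 and 53.9 CPM in control cells. Its difference was -0.14 (95% interval -0.30 to 0.01, edgeR adjusted p = 0.0966), and without Bcat1-KO library 1 it was -0.19 with an adjusted p of 0.0236. OB-cadherin, Cdh11, known from mesenchyme and bone, averaged 1.44 ± 0.214 CPM in Bcat1-KO cells and 1.60 ± 0.467 CPM in control cells (SD, n = 3 each; edgeR adjusted p = 0.631).

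The rarest type II genes rested on few control counts. Cdh6, known from kidney, had 22, 32 and 31 counts in Bcat1-KO cells, against 1, 2 and 1 counts in control cells (log2 fold change 4.05, SE 0.45, edgeR adjusted p = 9.87e-06). Cdh19, known from Schwann cell precursors and glia, had 24, 20 and 32 counts in Bcat1-KO cells, against 0, 2 and 1 counts in control cells. The ratio of its summed levels was 21.4, with an exact 95% counting interval of 7.05 to 106. VE-cadherin, Cdh5, the endothelial cadherin, had 1 count over the Bcat1-KO libraries and 2 over the control libraries. The untested Cdh7, Cdh8 and Cdh9 had 0 counts everywhere, Cdh12 had 1 count over the Bcat1-KO libraries and 0 over the control libraries, and Cdh18 had 3 over the Bcat1-KO libraries and 1 over the control libraries.

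Per length, the summed TPM of the type II genes overlapped between groups, at 99.3 to 110 in Bcat1-KO cells and 97.3 to 103 in control cells. That of the classical type I genes was 135 to 159 in Bcat1-KO cells and 77.6 to 83.3 in control cells. Of the TPM of both branches together, Cdh2 made up 13.6% ± 0.449 in Bcat1-KO cells and 2.89% ± 0.321 in control cells (SD, n = 3 each). Cdh20 took 16.6% in Bcat1-KO cells and 5.11% in control cells. In contrast, Cdh24 took 6.07% ± 0.875 in Bcat1-KO cells and 25.9% ± 1.39 in control cells. Cdh22 took 16.6% in Bcat1-KO cells and 24.3% in control cells, while its own TPM averaged 41.2 in Bcat1-KO cells and 43.9 in control cells. Cdh4 held the largest share in both, 44.3% in Bcat1-KO cells and 41.2% in control cells. The TPM of the 2 branches together averaged 249 ± 17.9 in Bcat1-KO cells and 181 ± 4.97 in control cells (SD, n = 3 each), so a share also depends on the other genes. These shares carry no test of their own.

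**Figure D2:**
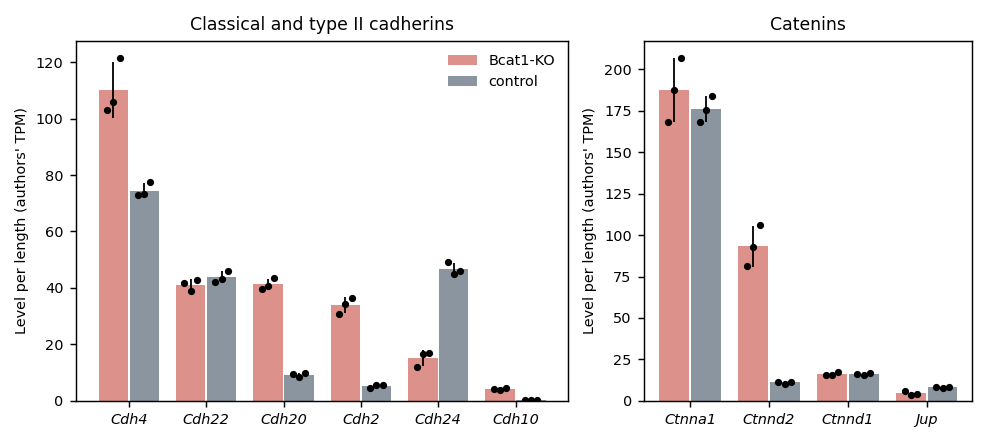
Level per length, in the authors' TPM, of the 6 classical and type II cadherins most abundant in Bcat1-KO cells (left) and the 4 tested catenins among the members, without beta-catenin (right). In control cells Cdh10, at 0.163 TPM, lay below Cdh11, at 0.567 TPM, which is not drawn. Bars are means of 3 libraries, lines are SD and points are libraries, with Bcat1-KO in red left of control in grey. Cdh24 is at 15.1 TPM in Bcat1-KO cells and 46.7 TPM in control cells, while Cdh2, Cdh20 and Ctnnd2 are higher in Bcat1-KO cells.

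Among the atypical and cadherin-related genes, 3 of 10 were tested. T-cadherin, Cdh13 (8:118283733-119324921), which is held in the membrane by a lipid anchor and has no cytoplasmic tail, had 10.3, 9.62 and 8.45 CPM in Bcat1-KO cells, against 0.223, 0.241 and 0 CPM in control cells. Control cells held 15 counts, and the fitted rise was 57.9-fold (log2 fold change 5.86, SE 0.34, edgeR adjusted p = 3.23e-08). The 50 neighbouring genes had a median change of -0.44, and their part in the rise was not tested. Cdh23, the tip-link cadherin of hair cells, averaged 3.10 ± 0.105 CPM in Bcat1-KO cells and 2.75 ± 0.622 CPM in control cells (SD, n = 3 each; edgeR adjusted p = 0.436). LI-cadherin, Cdh17, known from liver and intestine, was at 0.190 ± 0.0589 CPM in Bcat1-KO cells and 0.653 ± 0.212 CPM in control cells, and fell by 1.78 on the log2 scale (SE 0.38, edgeR adjusted p = 0.00169) on 21 counts in Bcat1-KO libraries and 62 in control libraries.

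None of the 8 desmosomal cadherin genes, the desmocollins and desmogleins that couple cells through keratin filaments, passed the filter. The highest total, that of Dsc3, was 2 counts over the Bcat1-KO libraries and 1 over the control libraries. All 8 lie on chromosome 18, between 19960930 and 20604521. The desmosomal plaque gene desmoplakin, Dsp, averaged 0.0357 CPM in Bcat1-KO cells and 0.0327 CPM in control cells.

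The catenins changed gene by gene. Delta-catenin 2, Ctnnd2 (15:30172593-31029311), the neural member that binds the membrane-near part of the cadherin tail, had 150, 165 and 190 CPM in Bcat1-KO cells, against 21.5, 19.5 and 21.2 CPM in control cells. It rose 8.11-fold (log2 fold change 3.02, SE 0.09, edgeR adjusted p = 1.64e-10). Its share of the TPM summed over Ctnna1, Ctnna2, Ctnnd1, Ctnnd2 and Jup was 30.9% ± 0.876 in Bcat1-KO cells and 5.24% ± 0.374 in control cells (SD, n = 3 each). That sum leaves out beta-catenin and the other catenins outside the members. Its paralog Ctnnd1, which binds the same part of the tail in most cell types, averaged 36.0 ± 1.95 CPM in Bcat1-KO cells and 37.8 ± 1.49 CPM in control cells. The difference was -0.07 (95% interval -0.22 to 0.09, edgeR adjusted p = 0.42). Alpha-catenin, Ctnna1, the actin link, had 194, 209 and 232 CPM in Bcat1-KO cells, against 196, 208 and 215 CPM in control cells. These groups overlapped, with a difference of 0.04 (95% interval -0.13 to 0.21, edgeR adjusted p = 0.688). Plakoglobin, Jup, which can take beta-catenin's place, had 11.4, 7.2 and 8.12 CPM in Bcat1-KO cells, against 16.2, 16.1 and 17.1 CPM in control cells. It fell by 0.89 on the log2 scale (SE 0.15, edgeR adjusted p = 0.000274). The neural alpha-catenin gene Ctnna2 had 1 count over the Bcat1-KO libraries and 4 over the control libraries.

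Of the 12 non-clustered protocadherins, 8 were tested, 4 rose, 1 fell and 3 did not pass the test. Pcdh7 (5:57717967-58133230), a protocadherin whose tail binds a protein phosphatase and whose start region is printed above, had 55.3, 51.4 and 58.3 CPM in Bcat1-KO cells, against 0.827, 0.783 and 1.03 CPM in control cells. It rose 62.5-fold (log2 fold change 5.97, SE 0.12, edgeR adjusted p = 7.03e-12), the smallest adjusted p among the members. Pcdh10 (3:45378398-45435623), an axon-guidance protocadherin that binds the WAVE complex, had 14.8, 13.3 and 14.3 CPM in Bcat1-KO cells, against 0.382, 0.392 and 0.241 CPM in control cells. The rise was 41.0-fold (log2 fold change 5.36, SE 0.18, edgeR adjusted p = 2.93e-10). Neither gene's groups came near each other. The 50 neighbours of Pcdh7 had a median change of -0.02 and those of Pcdh10 of -0.19, and their part was not tested.

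Pcdh11x had 12, 13.3 and 15 CPM in Bcat1-KO cells, against 2.83, 3.04 and 3.06 CPM in control cells (log2 fold change 2.17, SE 0.13, edgeR adjusted p = 4.86e-08). Pcdh19, an X-linked gene known from an epilepsy in humans, had 5.26, 5.74 and 7.21 CPM in Bcat1-KO cells, against 2.26, 1.99 and 2.24 CPM in control cells (log2 fold change 1.49, SE 0.17, edgeR adjusted p = 1.09e-05). Both lie on chromosome X, and the medians of their 50 neighbours were 0.36 and 0.23; their part in these rises was not tested. Pcdh1, known from airway epithelium, fell: it had 2.44, 2.29 and 2.59 CPM in Bcat1-KO cells, against 8.33, 9.49 and 9.33 CPM in control cells (log2 fold change -1.89, SE 0.13, edgeR adjusted p = 1.92e-07). Pcdh9 averaged 16.5 ± 3.01 CPM in Bcat1-KO cells and 14.0 ± 0.724 CPM in control cells (SD, n = 3 each), with an edgeR adjusted p of 0.13. Without Bcat1-KO library 1, which had 13.1 CPM against 17.7 and 18.7 CPM in the other Bcat1-KO libraries, its log2 fold change was 0.36 with an adjusted p of 0.00181. Pcdh17 averaged 6.52 ± 0.254 CPM in Bcat1-KO cells and 5.56 ± 0.399 CPM in control cells (edgeR adjusted p = 0.126), and Pcdh18 averaged 12.4 ± 1.35 CPM in Bcat1-KO cells and 11.7 ± 0.435 CPM in control cells (edgeR adjusted p = 0.518). The summed TPM of the protocadherins was 41.4 to 47.4 in Bcat1-KO cells and 19.8 to 20.9 in control cells.

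Fat and Dachsous are giant cadherins that bind each other across cell borders and, in flies, steer growth and planar polarity. Dchs1 (7:105752990-105787654) had 63.2, 55.4 and 70.8 CPM in Bcat1-KO cells, against 1.18, 1.33 and 1.34 CPM in control cells, and rose 49.2-fold (log2 fold change 5.62, SE 0.13, edgeR adjusted p = 1.47e-11). Fat4, its known binding partner in mammals, also rose, with 8.45, 7.2 and 8.97 CPM in Bcat1-KO cells, against 4.90, 4.91 and 5.78 CPM in control cells (log2 fold change 0.66, SE 0.14, edgeR adjusted p = 0.0012). For both genes, every Bcat1-KO library lay above every control library. Fat3, known from retinal and neuronal polarity, had 3.24, 4.83 and 6.27 CPM in Bcat1-KO cells, against 0.127, 0.0301 and 0.0688 CPM in control cells. Its log2 fold change was 5.93 (SE 0.42, edgeR adjusted p = 2e-07) and rests on 7 control counts. Dchs2 was rare, at 1.77, 1.14 and 0.990 CPM in Bcat1-KO cells, against 0.541, 0.482 and 0.413 CPM in control cells (log2 fold change 1.43, SE 0.30, edgeR adjusted p = 0.00128).

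Fat1, the most abundant of the 6, had 167, 157 and 209 CPM in Bcat1-KO cells, against 213, 202 and 265 CPM in control cells. The groups overlapped, and the call of a fall (log2 fold change -0.35, SE 0.12, edgeR adjusted p = 0.0238) was lost without control library 3, where the change was -0.22 (adjusted p = 0.123), and without Bcat1-KO library 2 (adjusted p = 0.0756). The 50 neighbours of Fat1 on chromosome 8 had a median change of -0.33, which left -0.02 for Fat1; its part in the call was not tested.

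The Celsr genes, planar polarity cadherins and the vertebrate counterparts of fly Flamingo, were all 3 tested, and 2 fell. Celsr1 (15:85898758-86033777) had 37.2, 31.0 and 39.3 CPM in Bcat1-KO cells, against 100, 86.1 and 110 CPM in control cells. It fell by 1.46 on the log2 scale (SE 0.10, edgeR adjusted p = 2.14e-07). Celsr2, whose window is printed above, had 87.2, 82.7 and 99.9 CPM in Bcat1-KO cells, against 134, 115 and 129 CPM in control cells, and fell by 0.48 (SE 0.08, edgeR adjusted p = 0.000372). Neither gene's groups overlapped. Celsr3 was near the detection limit, at 0.593 ± 0.134 CPM in Bcat1-KO cells and 0.309 ± 0.118 CPM in control cells (SD, n = 3 each). Its call of a rise (log2 fold change 0.93, SE 0.35, edgeR adjusted p = 0.0354) was lost in DESeq2 (adjusted p = 0.122) and without Bcat1-KO library 2 or 3 or control library 2 or 3 (adjusted p of 0.115, 0.0875, 0.128 and 0.114).

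Calsyntenin-1, Clstn1, which ties cargo vesicles to kinesin light chains in neurons, had 239, 226 and 253 CPM in Bcat1-KO cells, against 165, 169 and 170 CPM in control cells (log2 fold change 0.51, SE 0.07, edgeR adjusted p = 3.79e-05). The groups did not overlap. Clstn2 had 0 counts in every library, and Clstn3 had 7 counts over the Bcat1-KO libraries and 4 over the control libraries.

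**Figure D3:**
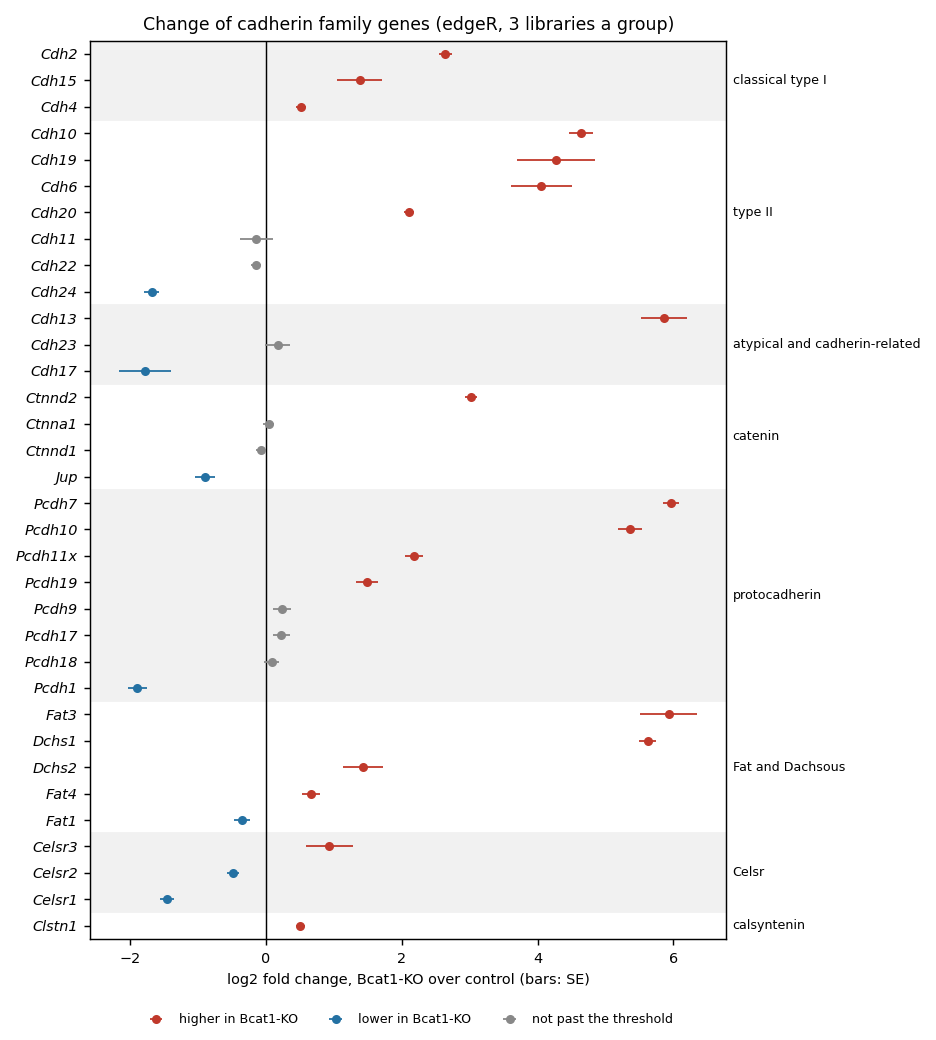
log2 fold change, Bcat1-KO over control, of the 34 tested genes by role, with bars of 1 SE from edgeR; red marks genes higher in Bcat1-KO cells, blue lower and grey not past the threshold. Rises reach 5.97 (Pcdh7), and the lowest value is -1.89 (Pcdh1).

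**Figure D4:**
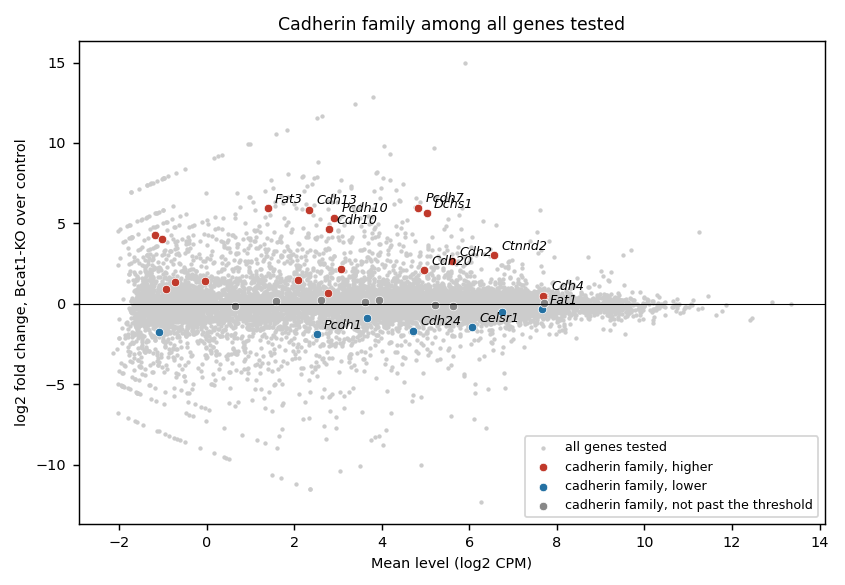
log2 fold change, Bcat1-KO over control, against mean level in log2 CPM for all 14020 tested genes (light grey), with the 34 cadherin family genes coloured by call and some of them named. Pcdh7, Dchs1, Fat3 and Cdh13 have log2 fold changes of 5.97, 5.62, 5.93 and 5.86.

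The remaining 31 members were too low to test. Among them, 12 had 0 counts in all libraries, 14 had 1 to 9 counts over all libraries together, and 5 had 10 or more: Clstn3, Pcdh15, Fat2, Cdhr3 and Pcdh8. The highest value of any was 0.447 CPM, for Fat2 in 1 control library, and Fat2 had 4 counts over the Bcat1-KO libraries and 28 over the control libraries.

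Markers of other cell types were measured beside these changes. All 9 epithelial markers lay below 1 CPM in every library, with sums of 0.0520 to 0.193 CPM in Bcat1-KO cells and 0.103 to 0.254 CPM in control cells, beside 0 counts for Cdh1. The 8 endothelial markers summed to 8.61 to 11 CPM in Bcat1-KO cells and 5.63 to 6 CPM in control cells. Most of that sum was Egfl7, at 8.51 CPM in Bcat1-KO cells and 4.55 CPM in control cells, while Tek was lower in Bcat1-KO cells (0.127 CPM, against 0.487 CPM in control cells) and Cldn5 was at 0. The 8 fibroblast and mural markers summed to 24.8 to 28.6 CPM in Bcat1-KO cells and 45.2 to 49.4 CPM in control cells. Within that list Pdgfra averaged 21.6 CPM in Bcat1-KO cells and 21.8 CPM in control cells, and 3 genes fell. Col1a1 averaged 4.21 CPM in Bcat1-KO cells and 17.7 CPM in control cells, Pdgfrb 0.224 CPM in Bcat1-KO cells and 4.54 CPM in control cells, and Acta2 0.0714 CPM in Bcat1-KO cells and 2.88 CPM in control cells, while Dcn, not tested, averaged 0.405 CPM in Bcat1-KO cells and 0.0748 CPM in control cells. The 7 immune markers summed to 2.58 to 3.77 CPM in Bcat1-KO cells and 2.58 to 4.26 CPM in control cells. Most of that was Cd68, at 3.02 CPM in Bcat1-KO cells and 3.32 CPM in control cells, and the other 6 lay below 1 CPM in every library. The 6 neuronal markers summed to 407 to 453 CPM in Bcat1-KO cells and 215 to 232 CPM in control cells, mostly Map2, while Rbfox3 averaged 0.0719 CPM in Bcat1-KO cells and lay at 32.3 to 33.6 CPM in control cells and Stmn2 was at 0. Their part in the cadherin changes was not tested.

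Genes that work with cadherins were examined in 9 lists of 109 genes, of which 87 were tested, 35 were higher in Bcat1-KO cells and 36 lower. Their median change was 0.01 on the log2 scale, beside 0.01 over all tested genes. These counts stand beside the 32.0% of all tested genes that were higher and the 30.3% that were lower. The nectins, immunoglobulin receptors that form adherens junctions beside cadherins, all 4 rose, and the median log2 fold change of their list of 5 was 0.62. Nectin1 averaged 15.2 ± 0.485 CPM in Bcat1-KO cells and 4.84 ± 0.549 CPM in control cells (log2 fold change 1.65, edgeR adjusted p = 1.91e-07), Nectin4 rose by 1.49 and Nectin3 by 0.62 on the log2 scale. Their cytoplasmic anchor afadin, Afdn, fell, at 265 ± 4.10 CPM in Bcat1-KO cells and 321 ± 16.5 CPM in control cells (SD, n = 3 each; edgeR adjusted p = 0.0035).

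Of 11 tested catenins, plakophilins and junction linkers, 7 fell and 3 rose, with a median of -0.42. Vinculin, Vcl, which joins alpha-catenin under tension, averaged 63.2 ± 4.96 CPM in Bcat1-KO cells and 233 ± 15.9 CPM in control cells (log2 fold change -1.89, edgeR adjusted p = 1.91e-09). Zyxin, Zyx, an actin-repair protein of junctions and focal adhesions, averaged 57.8 ± 3.52 CPM in Bcat1-KO cells and 130 ± 1.88 CPM in control cells (log2 fold change -1.17, edgeR adjusted p = 2.38e-08). Plakophilin 2, Pkp2, averaged 0.218 CPM in Bcat1-KO cells and 2.80 CPM in control cells (log2 fold change -3.67, edgeR adjusted p = 2.47e-07). Beta-catenin, Ctnnb1, rose slightly, at 748 ± 39.1 CPM in Bcat1-KO cells and 634 ± 23.1 CPM in control cells (log2 fold change 0.24, edgeR adjusted p = 0.0139).

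The tight junction list held 9 tested genes of 20, 4 higher and 4 lower, with a median of 0.34. Junctional adhesion molecule A, F11r, averaged 0.765 CPM in Bcat1-KO cells and 11 CPM in control cells (log2 fold change -3.84, edgeR adjusted p = 1.08e-09). Its relative Jam2 averaged 376 ± 43.6 CPM in Bcat1-KO cells and 226 ± 11.8 CPM in control cells (log2 fold change 0.74, edgeR adjusted p = 2.03e-05), and Tjp3 rose by 0.91. Of 7 transcription factors of epithelial-mesenchymal transition, 3 were tested, with a median of 0.24. Zeb2 averaged 70.2 ± 3.27 CPM in Bcat1-KO cells and 20.1 ± 1.10 CPM in control cells (log2 fold change 1.81, edgeR adjusted p = 1.34e-09), Zeb1 averaged 288 ± 5.02 CPM in Bcat1-KO cells and 244 ± 1.03 CPM in control cells (log2 fold change 0.24), and the rare Snai1 fell by 1.5. Twist1 had 0 counts in every library.

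All 14 genes of cadherin cleavage, processing and turnover were tested, 6 higher and 4 lower, with a median of 0.04. Adam10, the sheddase that cuts N- and E-cadherin, averaged 180 ± 6.30 CPM in Bcat1-KO cells and 122 ± 7.68 CPM in control cells (log2 fold change 0.56, edgeR adjusted p = 2.21e-05). The largest changes of the list were in the membrane protease Mmp14, the proprotein convertase Pcsk5 and its relative Pcsk6. Mmp14 averaged 27.2 ± 1.76 CPM in Bcat1-KO cells and 0.198 ± 0.147 CPM in control cells (log2 fold change 7.04), and Pcsk5 averaged 8.75 ± 1.46 CPM in Bcat1-KO cells and 0.0665 ± 0.0616 CPM in control cells (log2 fold change 7.01). Both folds rest on few control counts and are imprecise. Pcsk6 averaged 113 ± 4.89 CPM in Bcat1-KO cells and 15.5 ± 1.14 CPM in control cells (log2 fold change 2.87, edgeR adjusted p = 4.32e-11). The convertase Furin, which removes the cadherin prodomain, fell, at 41.3 ± 3.55 CPM in Bcat1-KO cells and 81.7 ± 2.07 CPM in control cells (log2 fold change -0.99, edgeR adjusted p = 3.3e-07).

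Planar polarity partners of the Celsr genes moved mostly down, 7 lower and 1 higher of 11 tested, with a median of -0.31. Ankrd6, the counterpart of fly Diego, averaged 14.5 ± 1.41 CPM in Bcat1-KO cells and 33.1 ± 1.45 CPM in control cells (log2 fold change -1.19, edgeR adjusted p = 3.49e-07). Vangl1, a core polarity membrane protein, averaged 25.8 ± 0.957 CPM in Bcat1-KO cells and 41.5 ± 0.243 CPM in control cells (log2 fold change -0.69, edgeR adjusted p = 3.67e-06), and Dvl1 fell by 0.57. Among the 15 Fat and Dachsous partners, 7 rose and 5 fell, with a median of 0.17. The kinase Fjx1, a vertebrate four-jointed gene, averaged 29.1 ± 1.46 CPM in Bcat1-KO cells and 9.38 ± 0.736 CPM in control cells (log2 fold change 1.64, edgeR adjusted p = 2.61e-08). Wwtr1, the Hippo effector Taz, averaged 157 ± 17.9 CPM in Bcat1-KO cells and 78.2 ± 4 CPM in control cells (log2 fold change 1, edgeR adjusted p = 1e-06), while the rare Tead4 fell by 0.67.

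Calsyntenin partners included 4 higher and 5 lower of 10 tested, with a median of -0.22. The neuronal kinesin heavy chain Kif5c averaged 4.21 ± 0.785 CPM in Bcat1-KO cells and 41.0 ± 3.57 CPM in control cells (log2 fold change -3.28, edgeR adjusted p = 1.07e-09), Kif5a fell by 1.37 and the adaptor Apba1 rose by 0.96. In the WAVE actin complex, to which Pcdh10 and Pcdh19 bind, 4 of 9 genes rose and 2 fell, with a median of 0.16. Cyfip2 averaged 64.2 ± 7.04 CPM in Bcat1-KO cells and 47.9 ± 0.853 CPM in control cells (log2 fold change 0.42, edgeR adjusted p = 0.000692), Nckap1 rose by 0.30 and Cyfip1 by 0.26.

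**Figure D5:**
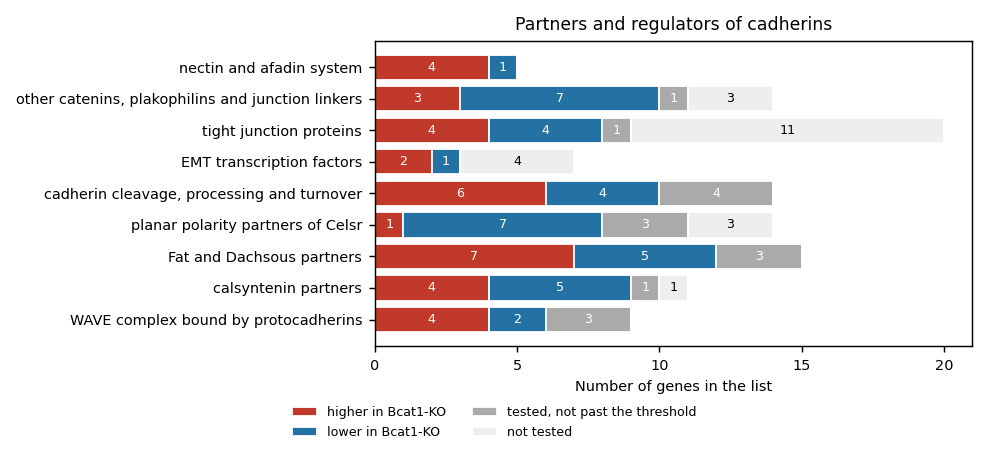
Number of genes higher in Bcat1-KO cells (red), lower (blue), tested without passing the threshold (grey) and not tested (light) in each of the 9 lists of cadherin partners and regulators. The planar polarity list has 7 lower and 1 higher, the nectin and afadin list 4 higher and 1 lower, and over all lists 35 were higher and 36 lower.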

How the data were processed

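RNA of 3 Bcat1-KO and 3 control libraries of mGB2 cells was made into stranded poly(A) libraries after on-column DNase digestion, per the labels' protocols. The submitters' processing notes name STAR 2.5.3a, featureCounts and mm10. Which gene annotation was counted is not given in sources used here. Each deposited table holds raw read counts per gene by strand and the authors' TPM, which sums to 1000000 in each library, per the file headers and values. The reverse-strand counts were tested, and the deposited TPM served for levels per length and for an alternative.

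The members and the lists of related genes were chosen with earlier results of these data known. Genes were kept by edgeR's expression filter (a minimum count of 10, 0.289 CPM), which removed 0.0511% of the counts, and scaled by TMM. Bcat1-KO was compared with control by the quasi-likelihood test of edgeR 4.0.16 (R 4.3.3) over all 14020 genes with Benjamini-Hochberg adjustment at 0.05 and no covariate; every adjusted p is from this test unless another is named. The SE is the log2 fold change over the root of its F statistic. CPM values are TMM-scaled, except the range given for 3 counts in 1 library. The exact interval of Cdh19 and the floors cover counting error only; intervals of a log2 fold change come from the SE and include the spread between libraries. The replicate biological coefficient of variation was 8.26%. Values in full are given for members past the threshold that changed by 1 or more on the log2 scale and reached 1 CPM in the higher group, for the 8 most abundant members, and for up to 3 genes of each list with the largest change and a mean log2 CPM of at least 0. Members outside the rule are given more briefly, except Jup, Fat4, Cdh6 and Cdh19. Jup and Fat4 were given per library after their values were seen. Cdh6 and Cdh19, below 1 CPM in both groups, were given as counts per library. Ctnnb1, Dsp, Afdn, Snai1, Twist1, Adam10 and Furin were named beyond this rule after their values were seen. Neighbours are the 50 tested genes nearest on the chromosome. Alternatives were DESeq2 1.42.0, other scalings, no filter, unstranded counts, limma 3.58.1 on log2(TPM + 1), a test against 1.5-fold, the replicate block and leaving out each library. Scripts were tested on simulated counts.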

Additional observations from a re-analysis of the deposited data

How the results depend on the processing

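Of the 34 tested members, no member past the threshold changed direction under any alternative run. Among the 8 not past it, Cdh11 had a log2 fold change of 0.11 without control library 1, beside -0.14, and Ctnna1 had -0.05 without Bcat1-KO library 3, beside 0.04; neither passed the test there. The number higher stayed between 18 and 20 and the number lower between 6 and 8 under other scalings, no filter, unstranded counts, DESeq2, limma on TPM and leaving out each library. A test against a 1.5-fold change left 15 higher and 5 lower members; under it, 3045 of all tested genes passed, beside 8735 in the ordinary test, and 21 of the related genes, beside 71, as such a test asks for more. DESeq2 lost 1 member call (Celsr3) and limma on TPM lost 2 (Celsr3, adjusted p = 0.206, and Fat1, adjusted p = 0.0923). Leaving out 1 library lost at most 2 calls, and leaving out Bcat1-KO library 1 added 2. The genes kept by the filter were not chosen again when a library was left out.

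Replicate numbers are shared between groups in the labels. The labels do not say that equal numbers share a culture or day, so the numbers were not taken to pair libraries. The deviations of same-numbered libraries correlated at -0.05, -0.07 and 0.16, and those of other pairs at -0.12 to 0.18. With 3 libraries a group, these values cannot decide on pairing. With the replicate block, 18 members were higher and 7 lower, and Celsr3 lost its call (adjusted p = 0.0721).

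Subtracting the median of the 50 neighbouring genes, chosen after seeing the data, moved 22 members by more than 1 SE and took Fat1 to -0.02. Cdh2 went from 2.64 to 2.27 and Ctnnd2 from 3.02 to 2.72, while Fat4 went from 0.66 to 0.99 and Cdh15 from 1.38 to 1.86. The subtraction turned the sign of Cdh11 (0.32) and Ctnna1 (-0.09), which were not past the threshold, and of no other tested member.

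Genes under about 1 CPM rest on few counts, so their folds are imprecise. The labels do not say whether libraries are separate cultures or whether the knockout is 1 clone, and effects of a clone and of the knockout cannot be told apart. RNA levels say nothing of protein at junctions.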
